A study of Mus musculus with 24 samples.

Results

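The 10 genes described here encode transcription factors of the ETS family in 3T3-L1 cells, a mouse embryonic fibroblast line that can be induced to become adipocytes. They are Ets1, Ets2, Elk1, Elk3, Elk4, Elf1, Elf2, Etv5, Etv6 and Gabpa, out of 26995 gene symbols in the deposited tables. Ets2 was chosen because its labelled reads were much lower with ML-792 than with DMSO at day 7, so its values in that contrast describe the choice and carry no test. The other 9 members were chosen by family. Each gene was read from 1 annotated 3′UTR, the entry with the highest mean total read count of its symbol.

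All cells received 4-thiouridine at 100 µM for 45 min before harvest, so that RNA made during the pulse carries T to C conversions in the reads. A total read is any read counted on the 3′UTR, and a labelled read is one with at least 1 such conversion. The cells were cultured with the solvent DMSO or with 0.5 µM ML-792, an inhibitor of the enzyme that activates SUMO for conjugation to proteins, and were harvested at day -2 as pre-adipocytes and at days 1, 3 and 7 after adipogenic induction. Each of the 8 conditions had 3 biological replicates, A, B and C, which gave 24 libraries. The induction medium, with dexamethasone, 3-isobutyl-1-methylxanthine and insulin, was given to both arms and was replaced at day 3 by medium with insulin. The libraries come from 1 cell line, and the sources do not say when ML-792 was first added to the cultures that were sequenced.

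ETS factors share a DNA-binding domain that recognises a GGAA core. Many of them stand at the end of the Ras and MAP kinase pathway. ETS1 and ETS2 are activators whose activity is raised by ERK phosphorylation, and ELK1, ELK3 and ELK4 are the ternary complex factors that bind beside serum response factor at immediate early genes. ETV6 is a repressor, ELF1 and ELF2 form a separate branch, and GABPA with its GABPB partner drives housekeeping and mitochondrial genes. Several family members, ETV6 and ELK1 among them, are known SUMO substrates.

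The 3′UTR entry of Ets2 lies on chromosome 16 at chr16:95719139-95721049 on the plus strand of mm10 and is 1911 bases long. It holds 574 T bases, of which only those that reads cover can show a conversion. Short stretches of it follow, read from the RefSeq GRCm38.p6 genome, because this is the sequence on which every Ets2 value below was counted. The capitals mark the motif searched on the transcribed strand: the AATAAA poly(A) signal, a TGTANATA Pumilio-type element and an ATTTA pentamer of the AU-rich kind.
Ets2 AATAAA, chr16:95721014-95721043: tctttctcaaatAATAAAgtatttggttta
Ets2 TGTANATA, chr16:95719571-95719600: gtcagtttgttTGTACATActattgtatct
Ets2 ATTTA, chr16:95720177-95720206: gaaatatatgggATTTAtgtagcagctatt
The poly(A) signal ends 18 bases before the end of the entry. Ets2 held 6 ATTTA pentamers, or 3.14 per kb, against 1.79 per kb over the 13331 entries compared, of which 66.5% held at least 1. It held 1 TGTANATA element, a motif present in 24.4% of those entries. The entries of the 10 members held 5 to 9 ATTTA pentamers each.

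The RefSeq promoter table, with 300 bases a promoter, listed 14 promoters for 9 of the 10 members. The ETS site CCGGAAGT, searched on both strands, was found in 1 of them, that of Elk4, and the shorter CCGGAAG it contains was found in 2, those of Elk4 and Gabpa. These windows show the binding letters of the family within the promoters of its own members, in capitals and written along the gene's strand.
Elk4 promoter, chr1:132007541-132007570: cggcccctcccCCGGAAGTgacgctcgcgc
Gabpa promoter, chr16:84835020-84835049: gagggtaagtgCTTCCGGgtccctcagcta
The Gabpa match reads on the opposite strand. Over all 32851 promoters of the table, 3.89% held CCGGAAGT and 8.86% held CCGGAAG, and a match is a description of letters only.

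Total reads per library ranged from 13554718 to 27013352, and labelled reads from 115709 to 820046. The labelled share of a library was 2.68% to 3.68% at day -2 and 0.80% to 1.36% at later days. Normalized read counts below are counts divided by each library's effective size, set by total reads, and brought to the mean size of the 24 libraries. All 7 adipocyte markers rose by day 7 in DMSO cells and 4 of 5 pre-adipocyte markers fell, while Ptprc and the muscle genes Myod1 and Myog had at most 3 reads in any library. Of the other immune and endothelial markers, only Cd68, with at most 121 reads, and Pecam1, with at most 21, had more than 5 reads in any library. The summed level of the 3 immune markers was 13.4 to 32.9 normalized counts at day -2 and 59.1 to 140 at day 3 in DMSO cells, where Cd68 rose. Fewer cells of a type and less RNA per cell cannot be told apart in these bulk libraries.

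Ets2, an ERK-responsive activator, had a total level that was highest in ML-792 cells at day 1 and lowest in ML-792 cells at day 7. In DMSO cells the total read counts of replicates A, B and C were 904, 775 and 998 at day -2. They were 1033, 1383 and 1450 at day 1, and 1084, 1115 and 1193 at day 3. At day 7 they were 1073, 999 and 1283. After normalization the 3 later days each lay above day -2 without overlap, and the later days overlapped each other.
With ML-792 the Ets2 counts were 1055, 1080 and 1341 at day -2 and 2637, 1886 and 3208 at day 1. They then were 1499, 1040 and 1210 at day 3 and 367, 246 and 294 at day 7. The day 1 libraries stood above those of every other condition and the day 7 libraries below them.
As normalized total counts, Ets2 was 773 ± 101, 1135 ± 164, 1286 ± 97.4 and 1239 ± 213 (SD, n = 3) at days -2, 1, 3 and 7 in DMSO cells, and 868 ± 92.3, 2669 ± 420, 1474 ± 156 and 385 ± 62.0 in ML-792 cells. Placed in order of the mean, the conditions ran from ML-792 day 1 through ML-792 day 3, DMSO day 3, DMSO day 7, DMSO day 1, ML-792 day -2 and DMSO day -2 to ML-792 day 7. Neighbours in that order overlapped except ML-792 day 1 with ML-792 day 3, DMSO day 1 with ML-792 day -2, and DMSO day -2 with ML-792 day 7.

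**Figure D1:**
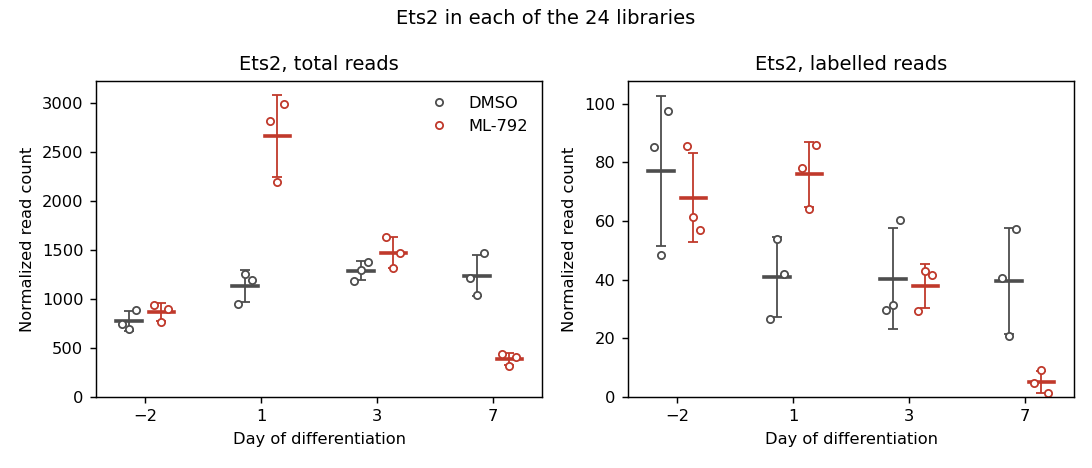
Normalized Ets2 read counts in each of the 24 libraries, total reads in one panel and labelled reads in the other, by day and treatment; points are libraries and bars the mean with its SD (n = 3). The ML-792 libraries lie highest at day 1 in total reads, with a mean of 2669, and lowest at day 7, with a mean of 385.

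The labelled Ets2 reads of replicates A, B and C in DMSO cells were 104, 54 and 110 at day -2, 29, 59 and 51 at day 1, 27, 27 and 52 at day 3, and 36, 20 and 50 at day 7. In ML-792 cells they were 96, 87 and 85 at day -2, 73, 55 and 92 at day 1, 27, 34 and 34 at day 3, and 4, 7 and 1 at day 7. The 3 ML-792 libraries of day 7 held 12 labelled Ets2 reads together, and each held fewer than any other library.
In the contrast that chose Ets2, ML-792 against DMSO at day 7, the normalized labelled count was 5.05 ± 3.83 against 39.5 ± 18.1, a log2 fold change of -2.92, and the total count was 385 against 1239, a log2 fold change of -1.69. Of the 13331 genes compared in total reads 290 had a lower value there than Ets2, and of the 6434 compared in labelled reads 138 did. In DMSO cells the day 7 total level of Ets2 differed from day -2 by a log2 fold change of 0.68, given as a description because the same libraries entered the choice.

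The question for the DMSO cells was which ETS genes change during normal adipogenesis, tested against day -2 with the edgeR quasi-likelihood test and Benjamini-Hochberg adjustment over all entries, at an adjusted p under 0.01. In total reads 2 of 10 members fell at day 1, beside 13.7% of the 26563 entries tested that changed in either direction. At day 3, 4 of 10 fell and Ets2 rose, beside 30.5% of entries, and at day 7, 4 of the 9 tested fell, beside 32.6%. The median log2 fold change of the members tested was -0.41, -0.84 and -0.72 at the 3 days, against -0.01, -0.02 and -0.06 over all entries. Groups did not overlap for 6, 7 and 6 of the 10 members, beside 38.9%, 51.3% and 55.1% of all entries; the day 7 count includes Ets2.

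Elk3, a ternary complex factor that acts mainly as a repressor, had the widest fall. Its total counts were 677, 710 and 568 at day -2, 161, 253 and 195 at day 1, 45, 51 and 50 at day 3, and 16, 35 and 41 at day 7. Each later day lay below day -2 in all libraries, and the normalized mean went from 564 ± 65.9 to 33.8 ± 14.6. Elk3 was 3.14-fold lower at day 1 (log2 fold change -1.65, SE 0.28, edgeR adjusted p = 0.000421), 10.2-fold lower at day 3 (edgeR adjusted p = 3.2e-07) and 16.6-fold lower at day 7 (edgeR adjusted p = 5.15e-08). The day 1 call was lost without replicate A or C, with adjusted p of 0.0185 and 0.0118.

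Ets1, the closest relative of Ets2, ran the other way from it in total reads at day 3. Its total counts were 639, 834 and 611 at day -2 and 522, 901 and 620 at day 1, groups that overlapped. They were 101, 150 and 116 at day 3 and 97, 98 and 95 at day 7, all below day -2. Ets1 fell 4.33-fold by day 3 (log2 fold change -2.11, SE 0.25, edgeR adjusted p = 6.47e-06) and 5.65-fold by day 7 (edgeR adjusted p = 1.12e-06). Ets2 rose 1.66-fold by day 3 (log2 fold change 0.73, SE 0.18, edgeR adjusted p = 0.00374), a call lost without replicate A (0.0646) or C (0.0251). At day 1 the Ets2 difference of 0.55 (SE 0.18) did not pass the test (edgeR adjusted p = 0.0362), and of the alternatives only the replicate block called it.

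Elf1 and Elf2, a related pair of ETS factors, were both called lower at days 3 and 7. Elf1 total counts were 532, 744 and 485 at day -2, 195, 377 and 185 at day 1, 117, 140 and 104 at day 3, and 138, 250 and 210 at day 7. The lowest Elf1 level was at day 3, a 3.73-fold fall (log2 fold change -1.90, SE 0.32, edgeR adjusted p = 0.000167), and the fall at day 7 was 2.33-fold (edgeR adjusted p = 0.00445), lost without replicate A (0.0613) or C (0.0167). The day 1 difference of -1.18 missed the threshold (edgeR adjusted p = 0.0111), but was called in 6 of the 8 alternatives, DESeq2 and the fit without replicate B among them.
Elf2 total counts were 476, 487 and 361 at day -2 and 345, 383 and 338 at day 1, groups that overlapped after normalization. They were 200, 217 and 165 at day 3, and 224, 167 and 206 at day 7. Elf2 fell 1.73-fold by day 3 (log2 fold change -0.79, SE 0.21, edgeR adjusted p = 0.00734) and stood at the same fold at day 7 (edgeR adjusted p = 0.00699). The day 3 call was lost without replicate A or C and the day 7 call without any 1 replicate, and both were lost with no filter on low counts (adjusted p of 0.0167 and 0.0160).

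Etv5, a PEA3-type factor induced by growth factor signalling, had few reads. Its total counts were 92, 65 and 87 at day -2, 41, 15 and 24 at day 1, 40, 19 and 30 at day 3, and 49, 57 and 48 at day 7. Etv5 was 2.96-fold lower at day 1 (log2 fold change -1.56, SE 0.40, edgeR adjusted p = 0.00983), a call that leaving out any 1 replicate removed. By day 7 the difference was -0.31 on the log2 scale (edgeR adjusted p = 0.545).
Elk4, the ternary complex factor also called SAP1, had 102, 64 and 73 total reads at day -2, 38, 35 and 41 at day 1, and 68, 65 and 65 at day 7. Its day 1 libraries lay below day -2, with a log2 fold change of -1.03 that did not pass (edgeR adjusted p = 0.0306), and its day 7 libraries overlapped day -2. The day 3 libraries, with 38, 21 and 39 total reads, also lay below day -2 after normalization, and Elk4 was not called there. DESeq2 called Elk4 lower at day 1.

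Etv6, the TEL repressor, had 564, 734 and 577 total reads at day -2, 867, 1154 and 842 at day 1, 433, 418 and 431 at day 3, and 348, 341 and 335 at day 7. Its day 1 libraries lay above day -2 and its day 7 libraries below, with log2 fold changes of 0.64 (edgeR adjusted p = 0.0231) and -0.53 (edgeR adjusted p = 0.0357) that did not pass. Etv6 was called at day 1 under DESeq2, with a replicate block, with all 24 libraries in the fit and without replicate B. At day 7 it was called only with all 24 libraries in the fit.
Elk1 and Gabpa passed at none of the 3 days, and their later libraries overlapped day -2 throughout. Without replicate B, Elk1 was called lower at day 7 (edgeR adjusted p = 0.00326). With a replicate block in the fit, Elk1 was called lower at days 1 and 7 (edgeR adjusted p = 0.00684 and 0.000484). Normalized Elk1 counts were lowest in replicate B in 8 of 8 conditions, so the replicates spread widely, as 815 ± 271 at day -2 and 497 ± 160 at day 7 show. Its total counts were 1164, 562 and 1115 at day -2 and 417, 337 and 585 at day 7. Gabpa total counts were 446, 507 and 378 at day -2, 390, 407 and 377 at day 1, 457, 317 and 296 at day 3, and 486, 378 and 473 at day 7. Its normalized means were 385 ± 61.3, 347 ± 31.6, 403 ± 84.7 and 494 ± 86.7 at days -2, 1, 3 and 7.

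**Figure D2:**
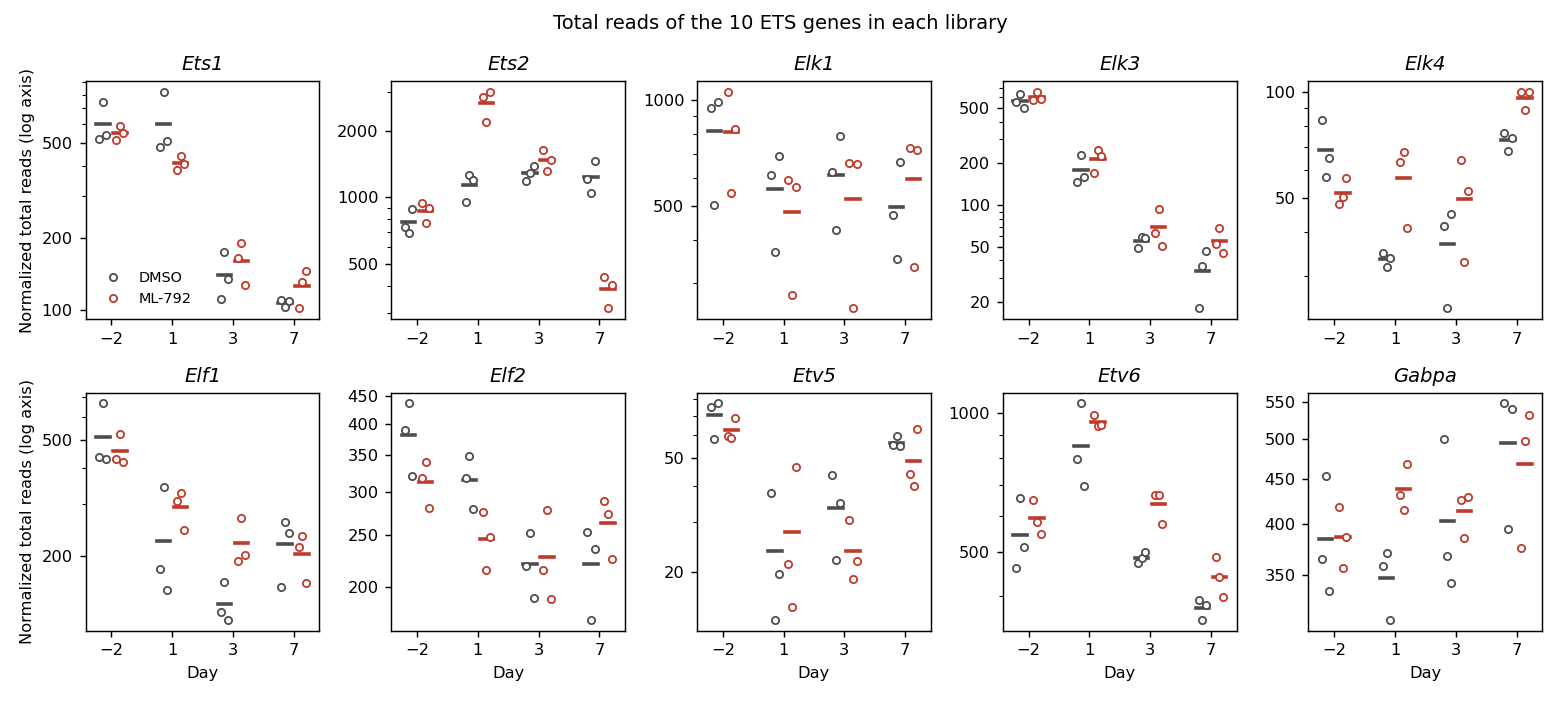
Normalized total read counts of the 10 members in each library on a log axis, 1 panel a gene, by day and treatment; points are libraries and short bars the means (n = 3). Elk3 goes from a mean of 564 to 33.8 and Ets1 from 604 to 107 in DMSO cells, while Ets2 is the member whose ML-792 libraries lie below its DMSO libraries at day 7 and above them at day 1.

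Labelled reads of the members were few, and Elk3, Elk4 and Etv5 did not pass the filter on low counts, which left 7. The labelled reads of most genes fell after day -2, with medians of -1.27, -1.70 and -1.54 on the log2 scale at days 1, 3 and 7 over the 10589 entries tested. When labelled reads were scaled to their own total, those medians were -0.01, -0.18 and -0.12, so the labelled changes of single genes are given beside the median. The members' own medians were -1.32, -1.75 and -1.86. Of the members tested 1 of 7 fell at day 1, 2 of 7 at day 3 and 1 of 6 at day 7, beside 19.7%, 34.4% and 30.2% of entries called in either direction. With labelled reads scaled to their own total, no member was called at any of the 3 days.

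Ets1 carried 51, 67 and 62 labelled reads at day -2, 17, 29 and 20 at day 1, 1, 5 and 7 at day 3, and 17, 4 and 3 at day 7. All its later libraries lay below day -2. The labelled fall of Ets1 was 10.3-fold at day 3 (log2 fold change -3.37, SE 0.65, edgeR adjusted p = 4.55e-05), 1.66 below the median of all entries on the log2 scale (difference -1.66). At day 7 it was 5.81-fold (edgeR adjusted p = 0.00074), which was lost without replicate C (0.0275).
Elf1 had 31, 22 and 19 labelled reads at day -2 and 2, 0 and 0 at day 1. With 72 reads against 2, the ratio adjusted for library size was 35.3, with an exact counting interval from 9.42 to 297. That interval pools the replicates and covers counting error only. The edgeR adjusted p was 0.0019, a call lost without replicate A or C. On the log2 scale the edgeR fold change of Elf1 was -4.86, a difference of -3.59 from the median of all entries. Elf2 had 55, 32 and 20 labelled reads at day -2 and 11, 7 and 0 at day 3, a 4.45-fold fall (edgeR adjusted p = 0.00923) that lay 0.45 beyond the median (difference -0.45). This call was lost without any 1 replicate, with no filter on low counts and with all 24 libraries in the fit, with adjusted p of 0.0108 to 0.0690.
Labelled Ets2 reads differed from day -2 by log2 fold changes of -0.91 at day 1 (edgeR adjusted p = 0.0969) and -0.93 at day 3 (edgeR adjusted p = 0.0723), which did not pass. Both lay above the median of all entries, by 0.35 and 0.77, and both turned positive when labelled reads were scaled to their own total.

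ML-792 was compared with DMSO at each day to see which genes respond to inhibition of SUMO conjugation, at an adjusted p under 0.1. In total reads, 0 of 10 members differed at day -2, beside 0% of entries called by edgeR or DESeq2, with 0 members and 348 entries at an unadjusted p under 0.05. At day 1, 1 of 10 members differed, Ets2, beside 6.55% of entries. At day 3 the count was 0 of 10 beside 12.9%, and at day 7 it was 0 of the 9 tested beside 9.6%. DESeq2 called no member at days 3 and 7 either, and 2 of 10 and 1 of 9 members had an unadjusted p under 0.05 at these days, beside 20.1% and 18.1% of entries. The groups of 1, 5, 2 and 3 of the 10 members did not overlap at the 4 days, beside 5.63%, 19.3%, 22.3% and 24.3% of entries, and the day 7 count includes Ets2, which was chosen on that contrast.

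Ets2 rose 2.35-fold with ML-792 at day 1, from 1135 ± 164 to 2669 ± 420 normalized total counts (SD, n = 3; log2 fold change 1.23, SE 0.17, edgeR adjusted p = 3.47e-05). All 3 ML-792 libraries lay above all 3 DMSO libraries. The call held in all 8 alternatives run, with log2 fold changes of 1.08 to 1.44 and adjusted p of 5.73e-11 to 0.050, the highest without replicate A. At day -2 the difference was 0.17 (edgeR adjusted p = 1) and at day 3 it was 0.20 (edgeR adjusted p = 0.608), with overlapping groups at both days.
A test of whether the ML-792 effect changes with the day, added after the data were seen and limited to days -2, 1 and 3, which had no part in the choice of Ets2, called 1 of 10 members, Ets2, beside 5.99% of entries. Relative to the ML-792 effect at day -2, that on Ets2 was larger by 1.07 on the log2 scale at day 1 and by 0.03 at day 3 (edgeR adjusted p = 0.00874 over both terms). Without replicate A the adjusted p was 0.399 and without replicate C 0.335. Over all 4 days, 0 of the 9 members tested passed the interaction test, beside 9.66% of entries, with 0 at an unadjusted p under 0.05 and 0 called by DESeq2.
At day 1 the labelled Ets2 counts were 75.9 ± 11.1 with ML-792 and 40.8 ± 13.6 with DMSO, groups that did not overlap, and the log2 fold change of 0.89 (SE 0.41) did not pass (edgeR adjusted p = 0.388). Markers of the cell state also moved at day 1 with ML-792: 2 of 5 pre-adipocyte and 2 of 7 adipocyte markers were higher and none lower, beside 6.55% of entries. The summed pre-adipocyte marker level was 46416 to 61357 with ML-792 against 46286 to 60385 with DMSO, and the adipocyte sum was 35240 to 40570 against 41666 to 45212. At day 3, 3 of 5 pre-adipocyte markers were higher and 2 of 7 adipocyte markers lower, beside 12.9% of entries. The pre-adipocyte sum there was 9719 to 10993 with ML-792 against 4727 to 5982. At day 7, 2 pre-adipocyte and 2 adipocyte markers were higher and 1 pre-adipocyte marker lower, beside 9.6%. The pre-adipocyte sum was then 3133 to 4093 against 4265 to 4758, and the adipocyte sum 834002 to 893933 against 630701 to 704784. The sums are led by the markers with the most reads. In DMSO cells at day -2, Dlk1 had a mean of 55571 and Lpl of 20988 normalized counts. The median log2 fold change with ML-792 was 0.28, 0.89 and 0.89 over the pre-adipocyte markers at days 1, 3 and 7. Over the adipocyte markers it was 0.47, -0.36 and 0.31, so a sum and a median can differ in sign. The part of these markers in the Ets2 values was not tested.

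**Figure D3:**
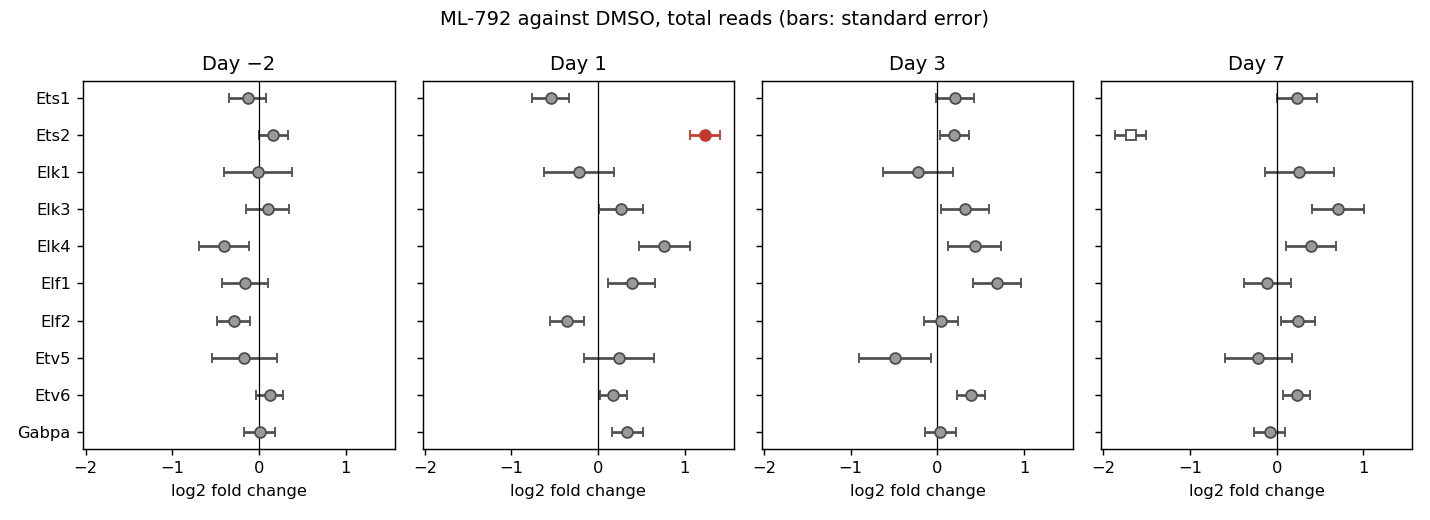
Log2 fold change of total reads, ML-792 against DMSO, for the 10 members at each day, with bars of 1 SE; filled red points passed an adjusted p under 0.1 and the open square is Ets2 at day 7, which chose the gene and has no test. Ets2 at day 1, at 1.23, is the red point.

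The other members differed less with ML-792. Among the ternary complex factors, Elk4 at day 1 had 59, 58 and 44 total reads against 38, 35 and 41, groups that did not overlap after normalization, with a log2 fold change of 0.76 (SE 0.30, edgeR adjusted p = 0.188). DESeq2 called Elk4 there. Elk3 at day 7 had 44, 53 and 33 reads against 16, 35 and 41, with a log2 fold change of 0.71 and overlapping groups (edgeR adjusted p = 0.184).
Ets1 at day 1 had 362, 381 and 437 reads against 522, 901 and 620, a log2 fold change of -0.55 without overlap after normalization (edgeR adjusted p = 0.183). Elf1 at day 3 had 176, 213 and 165 reads against 117, 140 and 104, a log2 fold change of 0.69 (edgeR adjusted p = 0.137), and was called without replicate B. The Etv6 groups at day 3 did not overlap, with 636 ± 51.9 against 486 ± 12.5 normalized counts and a log2 fold change of 0.39 (edgeR adjusted p = 0.142). With a replicate block in the fit, Ets1 at day 1, Elf1 and Etv6 at day 3 and Elk3 at day 7 were called.
At day 7, where Ets2 stood lower with ML-792, total Ets1 counts were 85, 102 and 106 with ML-792 against 97, 98 and 95, and Elf1 counts were 180, 181 and 118 against 138, 250 and 210. Those of Gabpa were 315, 386 and 390 against 486, 378 and 473. The groups of these 3 genes overlapped, with log2 fold changes of 0.24, -0.11 and -0.08. Those of Elk4 and Etv6 lay higher with ML-792 without overlap, as did or fell 24.3% of all entries. Elk4 stood at 96.2 ± 6.42 against 72.9 ± 4.61 normalized counts, and Etv6 at 442 ± 44.3 against 377 ± 19.1. Neither was called in the main fit or in the 8 alternatives.
Elk1, Elf2, Etv5 and Gabpa had differences between -0.49 and 0.34 on the log2 scale over the 4 days, none of which passed.

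In labelled reads, 0 of 7 members differed with ML-792 at days -2, 1 and 3 and 0 of the 6 tested at day 7. The shares of all entries called were 0%, 0.888%, 0.916% and 0.869%, so calls were rare in this readout. The median log2 fold change of all entries with ML-792 was -0.18, -0.30, -0.08 and -0.37 at days -2, 1, 3 and 7. At an unadjusted p under 0.05 the members numbered 0, 3, 1 and 0, beside 0.708%, 11.2%, 9.99% and 11.3% of entries. DESeq2 called 0, 1, 0 and 0 members, and 0, 233, 181 and 206 entries in all. The interaction test of labelled reads called 0 of 6 members over all days, beside 0.246% of entries, and 0 of 7 without day 7, beside 0.132%, with 0 and 1 members at an unadjusted p under 0.05.
Elf2 at day 1 had 0, 0 and 4 labelled reads with ML-792 against 19, 11 and 11 with DMSO, without overlap (log2 fold change -3.05, SE 0.91, edgeR adjusted p = 0.12). It was called under DESeq2, with 1 entry per gene, with the replicate block and without replicate C. Elf1 at the same day had 4, 8 and 5 reads against 2, 0 and 0 (edgeR adjusted p = 0.247). Gabpa at day 3 had 0, 0 and 2 reads against 6, 4 and 7 (edgeR adjusted p = 0.441). Labelled Etv6 reads were 21, 13 and 21 against 26, 51 and 38 at day 1 and 8, 8 and 5 against 6, 10 and 10 at day 7, with log2 fold changes of -0.82 and -0.10 that did not pass (edgeR adjusted p = 0.56 and 0.978).

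The labelled share of a gene's reads is higher where more of its RNA was made within the pulse and where more T bases are covered. At day -2 in DMSO cells 268 of 2677 Ets2 reads were labelled, 10.0% (95% Wilson interval 8.93% to 11.2%), Ets1 had 8.64% and Elf2 8.08%, against a library mean of 3.17%. Elk3 had 1.48%, Elk1 2.36% and Gabpa 2.70%. T bases made up 28.3% to 33.5% of each member's whole entry, and their share of the bases covered by reads was not measured. Elk4 had 9.62% at day -2, of which replicate A gave 18 of the 23 labelled reads.
At day 7 in DMSO cells the Ets2 share was 3.16% (106 of 3355 reads), or 2.96 ± 0.74 times the library share (SD, n = 3), close to the 3.07 ± 0.48 times of day -2. With ML-792 at day 7 it was 1.32% (12 of 907 reads, interval 0.76% to 2.30%), which is 1.74 ± 1.63 times the library share, with replicates at 1.09%, 2.85% and 0.34%. This last value belongs to the contrast that chose Ets2. At days 1 and 3 with ML-792 the Ets2 share was 2.70 ± 0.18 and 2.75 ± 0.85 times the library share, against 2.79 ± 0.67 and 3.03 ± 1.12 with DMSO.
Gabpa had a share of 0.60% at day 7 in DMSO cells, at 0.58 times that of the library. Elk4 had 0 labelled of 198 reads in DMSO cells at day 7, which allows a share of up to 1.52% by the limit of 3 reads that a count of 0 sets, and 1.90% by the Wilson interval. The intervals and limits cover counting error only.

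**Figure D4:**
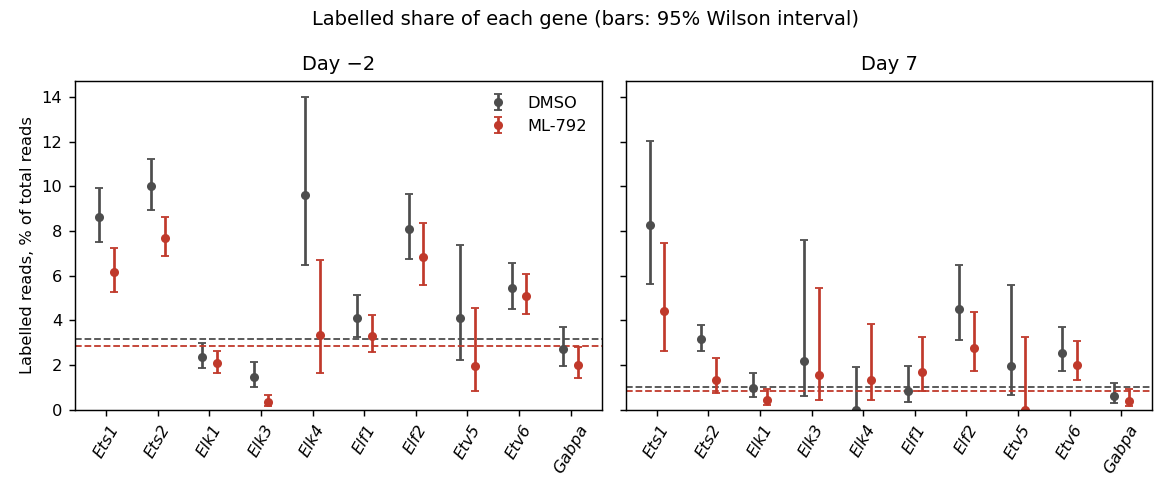
Labelled share of each member's reads in percent at days -2 and 7, pooled over 3 replicates with the 95% Wilson interval, by treatment; dashed lines give the mean labelled share of the libraries. At day -2 in DMSO cells Ets2, at 10.0%, lies above the library mean of 3.17%, and at day 7 with ML-792 it is 1.32%.

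The 5 genes whose labelled reads ran most like those of Ets2 over the 24 libraries, by Pearson's r of log2 normalized counts among 6433 genes, were Prrc2b (0.83), Ubr2 (0.80), Tmpo (0.79), Kmt2c (0.78) and Snx18 (0.78). The libraries share day, treatment and labelled depth, so these values are a description. With labelled reads scaled to their own total Prrc2b, Ubr2 and Tmpo stayed the first 3. The day 7 libraries that chose Ets2 entered the correlation, so low labelled counts with ML-792 at day 7 are part of what picked these genes.

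Of 16 other ETS genes 9 could be tested in total reads. In DMSO cells 1 fell at day 1, Etv1, by a log2 fold change of -1.61, beside 13.7% of entries called in either direction. At each of days 3 and 7, 5 fell and 1 rose, beside 30.5% and 32.6% of entries. The one that rose was Etv3, a repressor, from 228 ± 27.5 at day -2 to 1151 ± 197 at day 3 (log2 fold change 2.34, edgeR adjusted p = 2.14e-07). With ML-792 the day 3 level of Etv3 was 663 ± 124, lower by a log2 fold change of -0.80 (edgeR adjusted p = 0.0107). Etv3 was the 1 of 9 called there, beside 12.9% of entries. Etv4, Fli1 and Spib had at most 86, 32 and 53 reads in any library, and mean normalized counts of 0.36 for Etv4 and for Fli1 at day 3 and 0.38 for Spib at day 7 were among the calls. Elf3, with at most 11 reads in any library, was called lower with ML-792 at day 7, the 1 of 9 called there, beside 9.6% of entries. In labelled reads, where 3 could be tested, Erf, an ERK-regulated repressor, fell at all 3 days, with a log2 fold change of -3.96 at day 3, and Etv3 fell at day 1. Of all labelled entries 19.7%, 34.4% and 30.2% were called in either direction at days 1, 3 and 7.

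The partners and upstream kinases were listed as 17 symbols, with Mkl1, Mkl2 and Rfwd2 each under both an older and a newer symbol. Of these symbols 14 were found and tested. In DMSO cells Cic, which encodes an ERK-regulated repressor, Gabpb2, which encodes a GABP subunit, and Mkl1, which encodes a coactivator of serum response factor, fell at day 3, by log2 fold changes of -0.98, -0.83 and -0.94. At day 7 Cic, Mkl1, Mkl2 and Srf fell and Araf rose by 1.15. Over the list, 1 of 14 was called at day 1 and 3 at day 3, beside 13.7% and 30.5% of entries. At day 7, 4 were lower and 1 higher, beside 32.6%. Srf, the partner of the ternary complex factors, went from 2905 ± 927 to 985 ± 89.0 (log2 fold change -1.56, edgeR adjusted p = 3.41e-05). With ML-792 2 of 14 differed, both at day 3, beside 12.9% of entries, Gabpb2 by 0.49 and Mkl2 by -0.84. In labelled reads Srf fell at all 3 days in DMSO cells, with Map2k1 and Mkl2 at day 3 and Mkl1 and Mkl2 at day 7. Over the list, 1, 3 and 4 of 14 fell in labelled reads at the 3 days, beside 19.7%, 34.4% and 30.2% of entries. None differed with ML-792, beside 0.888%, 0.916% and 0.869% of entries at days 1, 3 and 7.

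Of 20 genes known as ETS or ternary complex targets, 10 fell and 1 rose at day 1 in DMSO cells, 12 fell and 5 rose at day 3, and 12 fell and 6 rose at day 7. Of all entries 13.7%, 30.5% and 32.6% were called in either direction at these days. The widest changes in total reads were falls of Plau, Fos and Mmp9 at day 1 and of Mmp9, Mmp3 and Plau at days 3 and 7, the matrix proteases among them going from 361.9, 275 and 112 normalized counts for Mmp9, Mmp3 and Plau at day -2 to 1.46, 2.90 and 1.86 at day 7. In labelled reads 10, 9 and 11 of 15 fell at days 1, 3 and 7, beside 19.7%, 34.4% and 30.2% of entries called in either direction. Mmp13 and Plau had no labelled read at day 7.
With ML-792 at day 1, when total Ets2 was higher, 3 targets were higher and 3 lower: Mmp13 and Mmp3, which encode secreted proteases, were higher by log2 fold changes of 2.83 and 1.82 and Fos by 1.00, while Egr2, Egr3 and Tfb1m were lower, Egr3 by -1.67. At day 3 Dusp6, an ERK phosphatase gene, Mmp13 and Plau were higher, by 1.30, 2.00 and 1.89, and Egr2 and Ier2 lower. At day 7 Dusp6, Egr3, Mmp9 and Spry4 were higher, by 1.08, 1.40, 2.81 and 0.62, and none was lower. The Mmp9 rise started from the low day 7 mean in DMSO cells given above, so it rests on few reads. In labelled reads Egr3 was lower and Fos higher at day 1, Egr1, Egr2, Fos and Ier2 were lower at day 3, and Egr1 and Egr2 at day 7. With ML-792, 6.55%, 12.9% and 9.6% of all entries were called in total reads at days 1, 3 and 7, and 0.888%, 0.916% and 0.869% in labelled reads. The median log2 fold change of the targets with ML-792 was 0.09, -0.03 and 0.21 in total reads at days 1, 3 and 7. In labelled reads the median of the 15 targets tested was -0.07, -0.57 and -0.35, against -0.30, -0.08 and -0.37 over all entries.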

How the data were processed

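Libraries were made with the QuantSeq 3′ kit and read as 50-base single reads. The deposited tables hold, per library and RefSeq 3′UTR entry of mm10, the read count and the count of reads with T to C conversions that the authors obtained with SlamDunk; 2 further deposited columns of another kind, entry length and mean T content, were used as such. Each table also had 6 library columns that matched no sample, which were left out. No cells without 4-thiouridine were analysed here, so conversions from sequencing error are part of the labelled counts.

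Samples were grouped by title. Entries were kept by edgeR's filterByExpr (minimum count 10, minimum total 15), with TMM factors from total reads for both readouts, and tested with the robust quasi-likelihood test (edgeR 4.0.16, limma 3.58.1, R 4.3.3; DESeq2 1.42.0 as an alternative) and Benjamini-Hochberg adjustment over all 26563 total or 10589 labelled entries. The time course used the 12 DMSO libraries (adjusted p under 0.01), following the study's threshold, and ML-792 all 24 (under 0.1). The code was tested on simulated data. Other alternatives were no filter, 1 entry per gene, a replicate block, other samples in the fit, scaling by labelled reads and leaving out each replicate.

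The members, lists and tests were chosen with earlier results of these data known. All 10 members are named, with the 5 genes most like Ets2, and from each list every called gene where at most 5 were called and otherwise the 3 with the largest change; further genes were named after their values were seen. A few called genes of the partner list are not reported here. Correlations used log2 with a prior count of 2. The replicates are separate biological samples per the study's methods. Counts of a few reads per library set the precision of labelled values.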

Additional observations from a re-analysis of the deposited data

Results flagged for a closer look

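The ML-792 effect on total Ets2 reads differed between days -2, 1 and 3, with an edgeR adjusted p of 0.00874 for the interaction over both terms. Relative to the effect at day -2, it was larger by 1.07 on the log2 scale at day 1 and by 0.03 at day 3. All 3 ML-792 libraries of day 1 lay above the DMSO libraries of that day. The adjusted p was 0.399 without replicate A and 0.335 without replicate C, each of which leaves 2 libraries a condition.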

How the results depend on the processing

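The members called in total reads during the DMSO time course numbered 2, 5 and 4 at days 1, 3 and 7. At day 1 DESeq2 called 5, with 5001 of 26563 entries called in all, against 3642 in the main fit. A fit with all 24 libraries called 4, and leaving out 1 replicate gave 0 to 3. At day 3 leaving out 1 replicate gave 3 to 5 and at day 7 2 to 4. With ML-792, DESeq2 called 2 members at day 1, Ets2 and Elk4, and 2306 entries in all, against 1741 in the main fit. Leaving out 1 replicate gave 1 to 2 members at day 1 and 0 to 1 at day 3. The interaction without day 7 kept 0 to 1 member.
In labelled reads, scaling by labelled reads left 0 members called at days 1, 3 and 7 in DMSO cells. A fit with all 24 libraries gave 1 at day 3 and 2 at day 7, and leaving out 1 replicate gave 0 to 2 at day 1, 1 at day 3 in each case and 0 to 1 at day 7. With ML-792 at day 1, DESeq2 and 1 entry per gene each called 1, and leaving out 1 replicate gave 0 to 1. DESeq2 called 233 labelled entries in all there, against 94 in the main fit.
Under scaling by labelled reads the labelled log2 fold change of Ets2 in DMSO cells turned to 0.37, 0.63 and 0.47 at days 1, 3 and 7. Leaving out 1 replicate gave labelled ML-792 differences of Ets2 from -0.36 to 0.14 at day -2 and from -0.34 to 0.25 at day 3, positive without replicate C. The cause was not tested.
The letters A to C recur in every condition but are not stated to mark a shared culture, and not every same-letter pair correlated. The mean r of same-letter deviations was 0.19 in total reads, with 68 of 84 pairs over 0.1, and 0.071 in labelled reads, with 22 of 84; 22 of 24 libraries correlated best with their own letter in each. A fit with the replicate block called 6 members in total reads at DMSO day 1 and 5 at DMSO day 7, Elk1 among them at both (edgeR adjusted p of 0.00684 and 0.000484). With ML-792 it called 2 at day 1, Ets1 and Ets2, 2 at day 3, Elf1 and Etv6, and 1 at day 7, Elk3. It called 2 in the interaction and 3 in that without day 7. In labelled reads the block called 2 at DMSO day 7 and 1, Elf2, at ML-792 day 1. The share of all entries called with the block is not given here, so its counts cannot be read as a result about the members. Labelled depth limits every labelled value: most members had fewer than 20 labelled reads a library after day -2.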
